A study of Mus musculus with 16 samples.

Results

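The genes described here are 9 genes of copper handling and of the metallothionein family, measured in the corpus callosum of mice fed cuprizone (CPZ). They are Mt1, Mt2, Mt3, Cp, Slc31a1, Atp7a, Atox1, Ccs and Sod1. They were listed by name, since CPZ is a copper chelator, and every array probe whose accession matched 1 of these symbols was used. This gave 11 of the 41174 probes on the array, for 9 of the 18749 genes with a name. Slc31a1 and Ccs each had 2 probes, and the other genes had 1.

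The study followed gene expression in this white matter tract through demyelination and remyelination. Male wild-type C57BL/6 mice aged 7 to 8 weeks received powdered chow with CPZ, at 0.2% in the methods and at 0.2 to 0.4% in the sample labels. Total RNA of the dissected corpus callosum was hybridised to single-colour Agilent arrays. The untreated group (3 arrays) ate a normal diet without CPZ and was matched in age to the mice fed CPZ for 4 weeks. The other groups were 2 weeks of CPZ (3 arrays), 4 weeks of CPZ (4 arrays) and 4 weeks of CPZ followed by regular diet (6 arrays). By the methods, regular diet lasted 2 days or 14 days, but the 6 arrays carry no label for this, so the regular diet group joins both times and its spread contains the difference between them. CPZ acts on the whole animal through its food, and each array holds the RNA of all cells in the dissected tract. Nothing in the labels says more about the origin of the arrays of a group, and the p-values measure the spread between these arrays.

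Copper enters cells through the transporter CTR1 (Slc31a1) and is handed on by small chaperones, ATOX1 to the export ATPase ATP7A and CCS to the superoxide dismutase SOD1. ATP7A moves copper into the secretory path and out of the cell, and ceruloplasmin (Cp) is the copper-carrying ferroxidase that in the brain is known from astrocytes. Metallothioneins are short, cysteine-rich proteins that bind zinc and copper. Mt1 and Mt2 are known to be switched on by zinc, other metals, glucocorticoids and oxidative stress, and Mt3 is the form typical of the brain.

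The level of a probe is given as the log2 of its signal relative to the 75th percentile of its array, so a level of 0 equals that percentile and a difference of 1 is 2-fold. All 11 probes were well above background on every array, with 1 exception. The Mt2 spot on untreated array 1 was marked as an outlier by the scanner software and was left out, so Mt2 rests on 2 untreated arrays. The scanner files and the processed table that the authors deposited disagreed on the sample of 14 of the 16 arrays, 13 of them across groups, and the arrays were assigned as in the processed table. Under the assignment recorded for the scanner files, 27 of the 36 differences given below changed sign, with Mt2 at -0.82 after 2 weeks and -1.25 after 4 weeks of CPZ, so the direction of these 27 rests on this choice, and the other 9 kept theirs. Under the assignment of the processed table, 8 of 8 oligodendrocyte markers had lower means than untreated after 2 and 4 weeks of CPZ (median log2 difference -3.51 and -2.77), and 53 and 45 probes of the whole array were called. Under the recorded assignment, the same 8 had higher means (median 1.28 and 0.60), and 0 probes were called in either comparison. The arrays also differed in ways that the groups do not explain. After each gene was centred on its mean, untreated array 1 resembled 4-week arrays 2 and 3 (Pearson's r across 20544 genes of 0.85 and 0.81), whereas its correlation with untreated arrays 2 and 3 was -0.35 and -0.23. Regular diet arrays 1 and 2 resembled each other (r = 0.86), as did regular diet arrays 4, 5 and 6 (r from 0.66 to 0.70). The 16 arrays lay on 4 slides, each with arrays of at least 2 groups. Between 57.3 and 72.2% of probes were well above background, and precision is limited by how few arrays each group had. A change in cell number and a change in RNA per cell cannot be told apart in tissue RNA.

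The metallothionein genes lie side by side on chromosome 8, and the best known route to Mt1 and Mt2 runs through the metal response element, the DNA motif bound by the zinc sensor MTF-1. The 250 bases before the annotated start of Mt1, Mt2 and Mt3 are shown because Mt2 had, with Cp, the largest differences of the 9 genes after 2 weeks of CPZ, and Mt1 and Mt3 are its neighbours. The sequences are from RefSeq on assembly GRCm38.p6, on the plus strand, and capitals mark each match to the core of the element, searched as TGCACNC or TGCGCNC on both strands.
Mt1, chr8:94178839-94179088: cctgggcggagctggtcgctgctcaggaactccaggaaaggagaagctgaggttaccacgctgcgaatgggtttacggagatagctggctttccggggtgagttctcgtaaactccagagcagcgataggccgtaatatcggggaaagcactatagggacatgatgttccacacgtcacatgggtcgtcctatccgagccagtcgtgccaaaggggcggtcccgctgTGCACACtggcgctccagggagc
Mt2, chr8:94172368-94172617: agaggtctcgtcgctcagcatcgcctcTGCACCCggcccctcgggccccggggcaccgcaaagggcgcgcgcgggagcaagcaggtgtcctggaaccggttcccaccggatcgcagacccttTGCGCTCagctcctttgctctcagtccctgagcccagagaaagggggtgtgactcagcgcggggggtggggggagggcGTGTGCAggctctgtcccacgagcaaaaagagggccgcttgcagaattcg
Mt3, chr8:94152357-94152606: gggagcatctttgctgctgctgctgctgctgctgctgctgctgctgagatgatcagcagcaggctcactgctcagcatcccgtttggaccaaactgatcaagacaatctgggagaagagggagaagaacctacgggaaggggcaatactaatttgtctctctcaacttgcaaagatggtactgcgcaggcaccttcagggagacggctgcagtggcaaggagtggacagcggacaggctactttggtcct
In the window from 250 bases before to 50 bases after the start, Mt2 held 4 matches, at bases -223, -128, -50 and 5 counted from the start. Mt1 held 3, at bases -23, 3 and 21, and Mt3 held 1, at base 28. Positions and counts depend on the annotated start, which was not tested. Another start would move the window, and a match after the annotated start need not lie in transcribed sequence. Of the 32851 windows of this length in the table, 25.7% held at least 1 match and 0.517% held 4 or more. Atp7a held 2 matches, both before its start, and the windows of Cp, Slc31a1, Atox1 and Sod1 held 0. Ccs had no entry. The core of the antioxidant response element, searched as TGACNNNGC on both strands, was present in 12.4% of all windows and 1 time each in those of Mt2, Atox1 and Sod1. A match is a description of these letters and no site of binding, and the 2 motifs were searched separately.

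**Figure D1:**
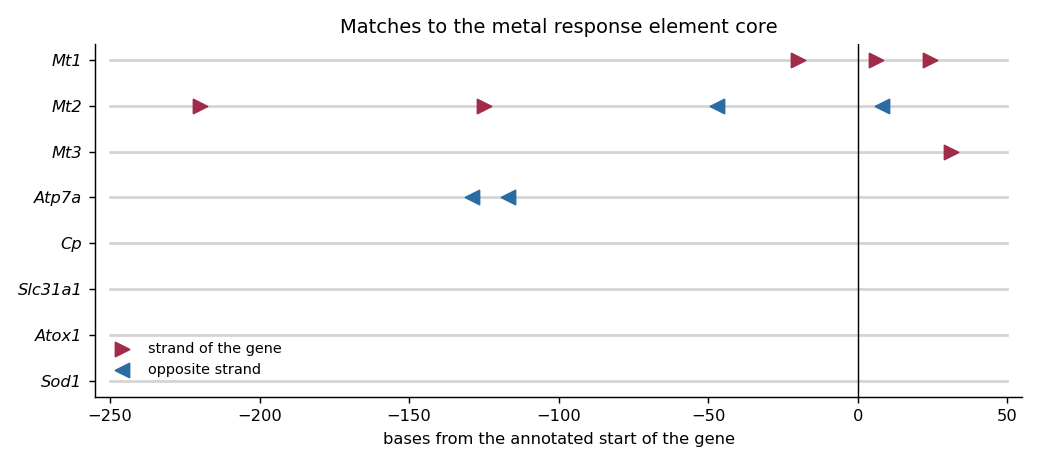
Matches to the metal response element core around the annotated start of 8 of the 9 genes; the x axis gives bases from the start, each grey line is a window of 250 bases before and 50 bases after it, and triangles point along the strand of the match. Mt2 has 4 matches, Mt1 3, Atp7a 2 and Mt3 1, and the other 4 genes have 0.

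None of the 9 genes passed the call of an adjusted p under 0.05 with at least a 2-fold change by limma. This held in the comparisons of 2 weeks, 4 weeks and regular diet with untreated and of regular diet with 4 weeks. An analysis of variance with Tukey comparisons, the kind of test named in the methods but with both regular diet times in 1 group, also called 0. It called only 19, 11, 13 and 5 probes of the whole array in these comparisons. After 2 weeks of CPZ, 0 of 9 were called against the untreated arrays, where 0.211% of all 20402 genes were. At an unadjusted p under 0.05, 2 of 9 (Mt2 and Cp) were higher, against 4.5% of all genes. At that level 5.03% of all genes were lower, with 0 of the 9. Mt2 and Cp also lay above every untreated array that measured them, as did 8.16% of all genes. After 4 weeks of CPZ, 0 of 9 were called, against 0.167% of genes. At an unadjusted p under 0.05, 4 of 9 (Mt2, Mt3, Slc31a1 and Atox1) were higher, against 5.2% of genes, and 0 of 9 were lower, against 4.83%. Only Mt2 of the 9 lay above every untreated array that measured it, as did 5.31% of genes. Mt2 was measured on untreated arrays 2 and 3 only, and its outlier-marked spot on array 1 (7.46) was also below every CPZ array. Against untreated arrays 2 and 3 alone, Mt1, Mt3, Slc31a1, Atox1 and Sod1 also lay higher on every array after 2 and 4 weeks of CPZ.

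On regular diet, 0 of 9 were called against untreated, where 0.854% of 20606 genes were. Mt2 and Cp were higher at an unadjusted p under 0.05, against 6.28% of genes, and 0 of 9 were lower, against 4.29%. Mt2 lay above both untreated arrays that measured it, and 5.06% of genes lay above every untreated array. The outlier-marked Mt2 spot of untreated array 1 (7.46) was above regular diet arrays 4 and 6 (7.37 and 7.33), so this separation rests on leaving it out. Against 4 weeks of CPZ, 0 of 9 were called, where 0.00485% of genes were, although between 0 and 1573 probes of the whole array were called in this comparison under the alternatives run. Mt3 and Sod1 were lower at an unadjusted p under 0.05, against 11.1% of genes, and 0 of 9 were higher, against 15.5%. Mt3 and Sod1 also lay below every 4-week array, as did 3.48% of genes. Between 4 and 2 weeks of CPZ, 0 of 9 were called by limma, where 0.0147% of genes were. At an unadjusted p under 0.05, 0 of 9 were higher after 4 weeks, against 4.92% of genes, and 0 of 9 lower, against 6.38%. Sod1 lay above every 2-week array on each 4-week array, as did 5.82% of genes, with a log2 difference of 0.38 (SE 0.21, adjusted p = 0.488). These comparisons share the 3 untreated arrays or the 4 arrays of 4 weeks, so they are not independent of each other.

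The median log2 difference of the 9 genes was 0.39 after 2 weeks of CPZ, where the median of all genes was 0.05, and 9 of 9 had a difference above 0 against 55.1% of all genes. After 4 weeks, the median was 0.65 with all genes at -0.04, and 8 of 9 were above 0 against 45.4%. For regular diet against untreated, the median was 0.56 with all genes at -0.01, and 7 of 9 were above 0 against 49.2%. For regular diet against 4 weeks of CPZ, the median was -0.15 with all genes at 0.03, and 2 of 9 (Cp and Atp7a) were above 0 against 52.8%.

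**Figure D2:**
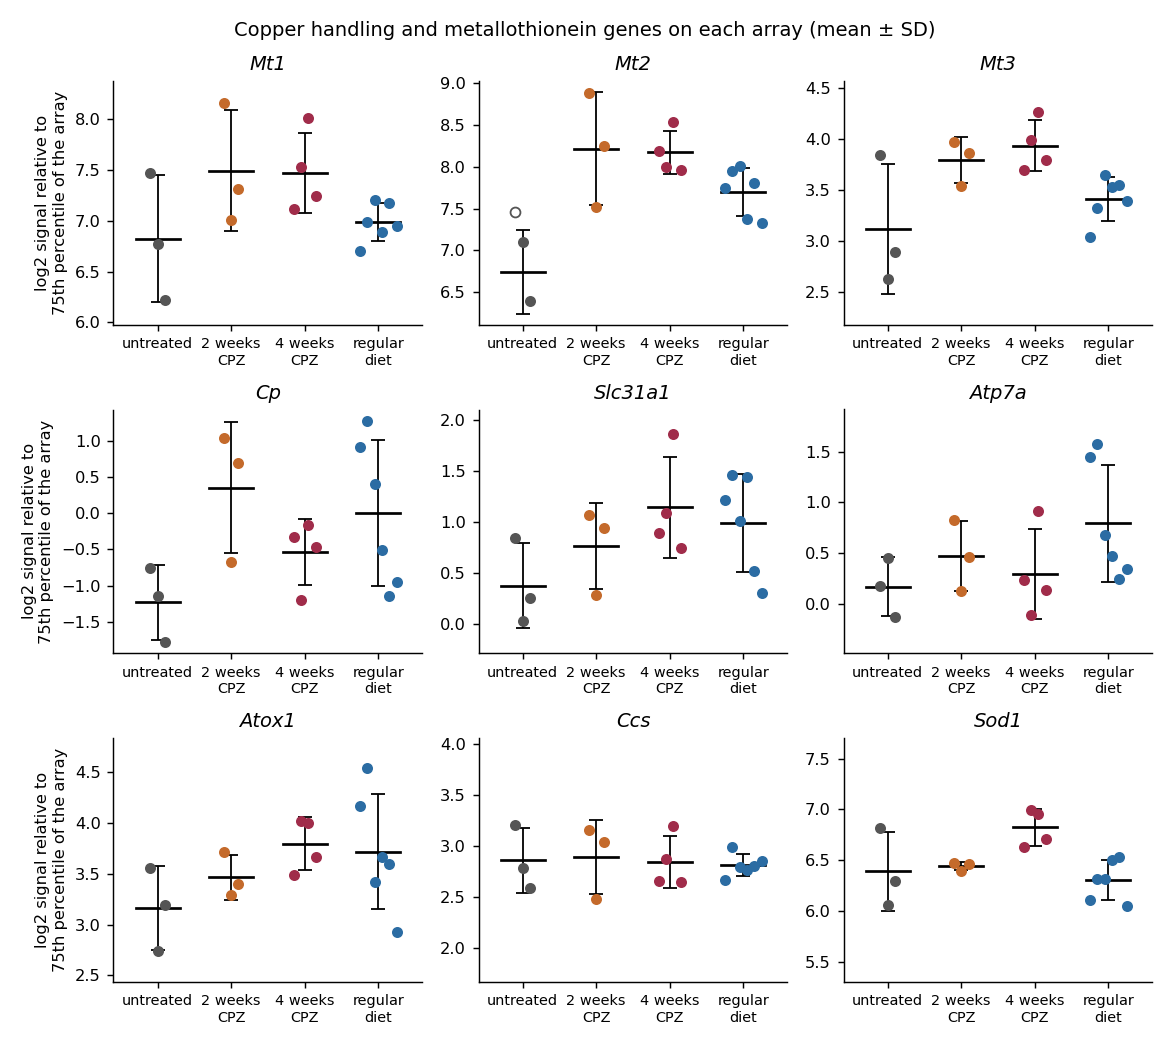
Log2 level of each gene (y axis, relative to the 75th percentile of the array, own scale per panel) on the 16 arrays by group (x axis); points are arrays, the wide bar is the mean and the whiskers the SD, and the open circle is the Mt2 spot that was left out. The brightest probe of each gene is shown. Mt2 has the clearest step between the untreated and the CPZ arrays, and the Ccs values of the 4 groups overlap.

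The metallothioneins had higher mean levels in both CPZ groups than in the untreated group, by 1.57- to 2.77-fold, and none of these differences passed after adjustment. Mt2 had a log2 level of 7.10 and 6.39 on untreated arrays 2 and 3. After 2 weeks of CPZ it was 8.87, 7.52 and 8.24, and after 4 weeks 8.19, 8.00, 8.53 and 7.96. On regular diet it ran from 7.33 to 8.00, with a median of 7.77. Every array of the 3 CPZ-fed groups thus lay above both untreated values. The outlier-marked spot of untreated array 1 read 7.46, which is also below every array after 2 and 4 weeks of CPZ but above the lowest 2 regular diet arrays.

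The log2 difference of Mt2 was 1.47 after 2 weeks (2.77-fold, SE 0.41, 95% interval 0.53 to 2.41, adjusted p = 0.207). It was 1.43 after 4 weeks (2.69-fold, SE 0.39, 95% interval 0.54 to 2.32, adjusted p = 0.202). With the outlier spot kept, the differences were 1.23 and 1.19. Limma with estimated array weights, which count dissimilar arrays less, called Mt2 in both comparisons (adjusted p = 0.000503 and 0.00561). With these weights, 6.38 and 6.91% of all tested probes were also called in the 2 comparisons, and 3.86% on regular diet against untreated. On regular diet the difference from untreated was 0.96 (1.94-fold, SE 0.32, adjusted p = 0.278, or 0.00281 with array weights), and from 4 weeks of CPZ it was -0.47 (1.39-fold lower, SE 0.25, adjusted p = 0.258). Without untreated array 3 the regular diet difference from untreated was 0.60, and without untreated array 2 it was 1.31, each against 1 untreated array. Over the alternatives with no single array left out, the recorded assignment aside, it ran from 0.72 to 1.16. The outlier spot kept was 1 of these alternatives. Within slides, the 4-week difference of Mt2 was 1.44 on slide 2 and 1.80 on slide 3, each between 1 array and 1 array, and on slide 1 the 2-week difference was 1.1 with the outlier spot kept. Regular diet differed from untreated by -0.092 on slide 1 with the outlier spot kept, by 0.54 on slide 2 and by 1.38 on slide 3, and from 4 weeks of CPZ by -0.90, -0.41 and 0.022 on slides 2, 3 and 4.

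Mt1 had a log2 level of 7.48, 6.77 and 6.22 on the untreated arrays. After 2 weeks of CPZ it was 8.16, 7.01 and 7.32, after 4 weeks 7.12, 7.53, 8.01 and 7.25, and on regular diet 6.70 to 7.21 with a median of 6.97. Untreated array 1 lay inside the range of both CPZ groups, while untreated arrays 2 and 3 lay below all 7 CPZ arrays. The log2 difference was 0.67 after 2 weeks (SE 0.40, 95% interval -0.24 to 1.58, adjusted p = 0.770) and 0.65 after 4 weeks (SE 0.38, 95% interval -0.20 to 1.5, adjusted p = 0.657). With each array left out in turn, the 2-week difference ran from 0.34, without 2-week array 1, to 1.00, without untreated array 1. The 4-week difference ran from 0.35, without untreated array 3, to 0.98, without untreated array 1, still with no call. On regular diet, Mt1 differed from untreated by 0.16 (SE 0.29, adjusted p = 0.805) and from 4 weeks of CPZ by -0.49 (SE 0.26, adjusted p = 0.258). The first was -0.14 without untreated array 3 and 0.49 without untreated array 1, and the second -0.31 without 4-week array 3. The sign of the difference between regular diet and untreated varied by slide, at -0.58 on slide 1, 0.20 on slide 2 and 0.71 on slide 3. Within slide 1 the 2-week difference from untreated was 0.26. The 4-week difference was 1.23 on slide 2 and 0.89 on slide 3, each between 1 array and 1 array.

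Mt3, the brain form, had a log2 level of 3.84, 2.62 and 2.89 on the untreated arrays. It was 3.97, 3.54 and 3.87 after 2 weeks of CPZ, 3.69, 3.99, 4.27 and 3.80 after 4 weeks, and 3.04 to 3.65 on regular diet with a median of 3.46. As for Mt1, untreated array 1 was among the CPZ values and the other 2 untreated arrays were below them. The log2 difference was 0.67 after 2 weeks (SE 0.32, adjusted p = 0.591) and 0.82 after 4 weeks (1.76-fold, SE 0.30, 95% interval 0.15 to 1.49, adjusted p = 0.359). Leaving out each array in turn, they ran from 0.43 and 0.57, both without untreated array 2, to 1.04 and 1.18, both without untreated array 1. Within slide 1 the 2-week difference was 0.077. The 4-week difference was 1.65 on slide 2 and 0.80 on slide 3, each between 1 array and 1 array. The 6 regular diet arrays all lay below the 4 arrays of 4 weeks of CPZ, with a difference of -0.52 (1.44-fold lower, SE 0.22, 95% interval -0.99 to -0.06, adjusted p = 0.164). This difference was -0.91, -0.40 and -0.25 within slides 2, 3 and 4. Regular diet differed from untreated by 0.29 (SE 0.24, adjusted p = 0.620), or by 0.045 without untreated array 2 and 0.66 without untreated array 1. Within slides 1, 2 and 3 it differed from untreated by -0.316, 0.735 and 0.402.

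**Figure D3:**
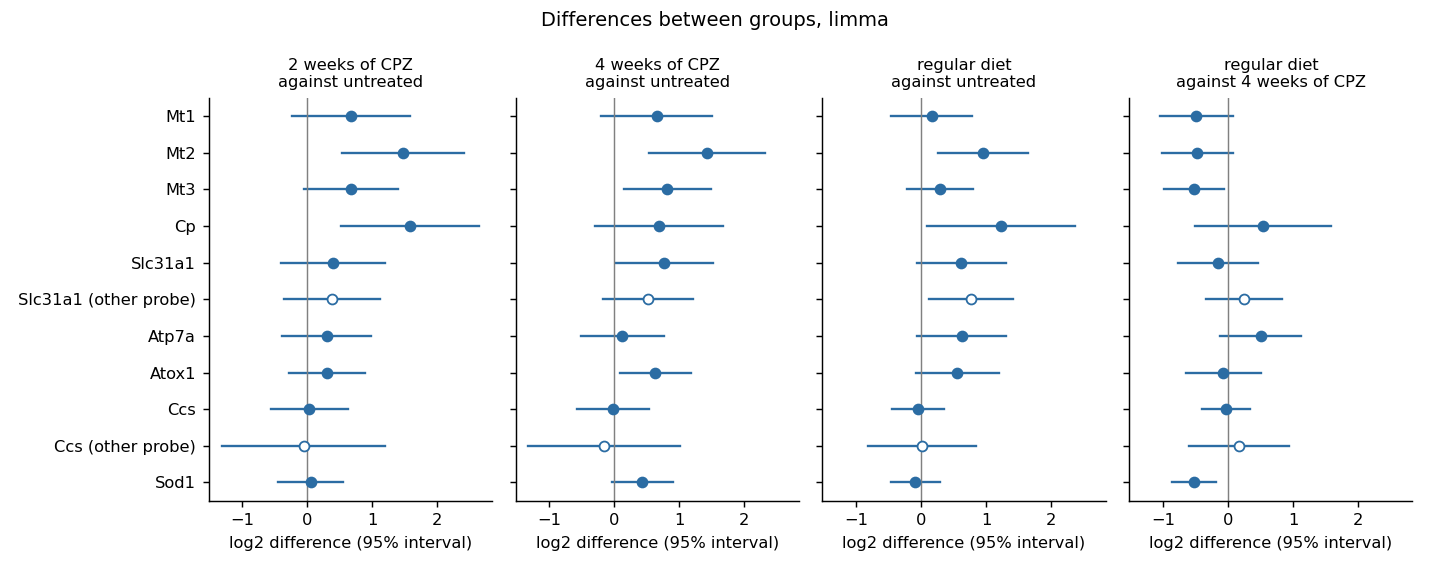
Log2 difference between groups (x axis) for each probe (y axis) in the 4 comparisons, from limma with 95% intervals not adjusted for the number of genes; filled points are the brightest probe of a gene and open points the other probe of Slc31a1 and Ccs. Mt2 and Cp have the largest differences after 2 weeks of CPZ, at 1.47 and 1.58, and Ccs lies near 0 in all 4 comparisons.

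Ceruloplasmin had the largest log2 difference of the 9 genes after 2 weeks of CPZ, and its arrays spread widely, with an SD of 0.90 after 2 weeks and 1.01 on regular diet. Cp had a log2 level of -0.76, -1.15 and -1.78 on the untreated arrays, and of 1.03, -0.67 and 0.69 after 2 weeks of CPZ. After 4 weeks it was -0.33, -1.19, -0.16 and -0.47. The 2-week arrays were all above the untreated ones, by a narrow margin for array 2, and the 4-week values overlapped with the untreated ones through array 2. The difference was 1.58 after 2 weeks (2.99-fold, SE 0.47, 95% interval 0.52 to 2.64, adjusted p = 0.224) and 0.69 after 4 weeks (SE 0.44, 95% interval -0.30 to 1.68, adjusted p = 0.712). The 4-week value was 0.42 without untreated array 3. Array weights gave a call for Cp in both comparisons (adjusted p = 0.00013 and 0.0253), where 6.38 and 6.91% of all tested probes were called. The difference between 4 and 2 weeks was -0.89 (SE 0.44, adjusted p = 0.475) and was fitted in this 1 setting only. Within slides, Cp differed from untreated by 1.62 after 2 weeks on slide 1, and by 0.99 and 1.45 after 4 weeks on slides 2 and 3. On regular diet it differed from untreated by 0.25, 1.31 and 1.67 on slides 1, 2 and 3.

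On regular diet, Cp had a log2 level of 0.92, 1.28, 0.40, -0.51, -1.14 and -0.95 on arrays 1 to 6. The first 4 were above every untreated array and the last 2 overlapped with the untreated ones. The group mean differed from untreated by 1.23 (2.34-fold, SE 0.53, 95% interval 0.09 to 2.37, adjusted p = 0.432) and from 4 weeks of CPZ by 0.54 (SE 0.49, adjusted p = 0.499). The second of these ran from 0.28, without regular diet array 2, to 0.76, without regular diet array 5. Choroid plexus, which also makes ceruloplasmin, lies in the ventricles below the tract. Its 9 tested markers had a mean log2 level of -3.28, -2.30, -0.02, 1.41, -2.15 and -0.97 on regular diet arrays 1 to 6. The 8 oligodendrocyte markers had a mean of 0.54, 0.58, 1.41, 4.30, 4.36 and 4.99 on the same arrays. The 3 regular diet arrays with the highest Cp thus had the 3 lowest oligodendrocyte means. After 2 weeks of CPZ the order was the reverse. There, arrays 1, 3 and 2, with Cp at 1.03, 0.69 and -0.67, had oligodendrocyte means of 2.32, 0.84 and -1.12. Their choroid plexus means were -0.13, -1.38 and -2.34. On 4-week arrays 1 to 4, with Cp at -0.33, -1.19, -0.16 and -0.47, oligodendrocyte means were -0.25, 2.58, 2.53 and 1.59. The study describes as many arrays for one regular diet time as for the other, and the labels do not say which arrays belong to which.

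The uptake transporter gene Slc31a1 had a log2 level by its brightest probe of 0.84, 0.02 and 0.26 on the untreated arrays, and of 1.07, 0.28 and 0.95 after 2 weeks of CPZ. After 4 weeks it was 0.89, 1.09, 1.86 and 0.75, and on regular diet 0.30 to 1.46 with a median of 1.11. Untreated array 1 lay inside the range of each of the other groups. The log2 difference was 0.39 after 2 weeks (SE 0.35, adjusted p = 0.893) and 0.77 after 4 weeks (1.71-fold, SE 0.33, 95% interval 0.03 to 1.52, adjusted p = 0.469). When each array was left out in turn, the 2-week difference ran from 0.22, without untreated array 2, to 0.64, without 2-week array 2. The 4-week difference ran from 0.53, without 4-week array 3, to 1.01, without untreated array 1. On regular diet it was 0.62 against untreated (SE 0.32, adjusted p = 0.501) and -0.15 against 4 weeks of CPZ (SE 0.29, adjusted p = 0.761). The other probe gave 0.38, 0.52 and 0.77 for the 3 comparisons with untreated, and 0.25 for regular diet against 4 weeks of CPZ, so the 2 probes differed in sign in the last comparison only.

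The export ATPase gene Atp7a had a log2 level of 0.18, 0.46 and -0.12 on the untreated arrays, and of 0.82, 0.13 and 0.46 after 2 weeks of CPZ. After 4 weeks it was 0.23, -0.11, 0.92 and 0.14, and the 3 groups overlapped. The log2 difference was 0.30 after 2 weeks (SE 0.30, 95% interval -0.38 to 0.99, adjusted p = 0.893) and 0.13 after 4 weeks (SE 0.28, 95% interval -0.51 to 0.77, adjusted p = 0.923). A single array moved both, the 2-week difference from 0.13 (without 2-week array 1) to 0.47 (without 2-week array 2) and the 4-week difference from -0.083 (without 4-week array 3) to 0.27 (without untreated array 2). On regular diet the arrays read 1.45, 1.58, 0.68, 0.47, 0.25 and 0.34, with arrays 1 and 2 above all arrays of the other groups. The mean differed from untreated by 0.62 (SE 0.32, adjusted p = 0.499) and from 4 weeks of CPZ by 0.50 (SE 0.29, adjusted p = 0.291).

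The chaperone gene Atox1 had a log2 level of 3.56, 2.74 and 3.20 on the untreated arrays, 3.72, 3.29 and 3.40 after 2 weeks of CPZ, and 3.49, 4.02, 4.00 and 3.67 after 4 weeks. On regular diet arrays 1 and 2 were again highest, at 4.17 and 4.54, and the other 4 ran from 2.93 to 3.67. Only the lowest 4-week array was below the highest untreated array. The log2 difference was 0.30 after 2 weeks (SE 0.26, adjusted p = 0.893) and 0.63 after 4 weeks (1.55-fold, SE 0.24, 95% interval 0.09 to 1.18, adjusted p = 0.389). Leaving out each array in turn, they ran from 0.089 and 0.42, both without untreated array 2, to 0.50 and 0.83, both without untreated array 1. On regular diet it was 0.56 against untreated (SE 0.30, adjusted p = 0.515), or 0.34 without untreated array 2, and -0.07 against 4 weeks of CPZ (SE 0.27, adjusted p = 0.882).

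Ccs, the chaperone that loads copper into SOD1, had the smallest differences of the 9 genes in all comparisons except that of 4 with 2 weeks of CPZ. By its brightest probe it read 3.21, 2.78 and 2.59 on the untreated arrays, 3.15, 2.47 and 3.04 after 2 weeks, 2.66, 2.87, 3.20 and 2.65 after 4 weeks, and 2.67 to 3.00 on regular diet with a median of 2.80. The ranges of the 4 groups overlapped, and that of regular diet was the narrowest. The log2 difference was 0.03 after 2 weeks (95% interval -0.56 to 0.62), -0.01 after 4 weeks (95% interval -0.57 to 0.54) and -0.05 on regular diet against untreated (95% interval -0.45 to 0.35), all with an adjusted p of at least 0.920. The other probe gave -0.06, -0.15 and 0.01, and read -2.28 on 4-week array 1 where the other 3 arrays of that group ran from -0.84 to 0.12.

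Sod1, the copper and zinc superoxide dismutase, had a log2 level of 6.82, 6.06 and 6.29 on the untreated arrays. It was 6.47, 6.40 and 6.46 after 2 weeks of CPZ, 6.63, 7.0, 6.96 and 6.71 after 4 weeks, and 6.05 to 6.53 on regular diet with a median of 6.32. All 6 regular diet arrays lay below all 4 arrays of 4 weeks, with a log2 difference of -0.52 (1.44-fold lower, SE 0.16, 95% interval -0.86 to -0.18, adjusted p = 0.103). It was -0.78, -0.31 and -0.55 within slides 2, 3 and 4. With each array left out in turn, the adjusted p of this difference ran from 0.0386, without untreated array 1, to 0.281, and its size stayed under the 2-fold needed for a call. Against untreated, the difference was 0.05 after 2 weeks (SE 0.22, adjusted p = 0.964), 0.43 after 4 weeks (SE 0.21, adjusted p = 0.547) and -0.09 on regular diet (SE 0.17, adjusted p = 0.824). Without untreated array 2 these were -0.11, 0.27 and -0.25, and without untreated array 1 they were 0.27, 0.65 and 0.13.

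Markers of the cell types of the tissue differed in level between these groups, with 0 called by limma in any list and comparison. The 8 oligodendrocyte markers were all well above background on each untreated array. Their mean log2 level was 3.73 to 4.80 on untreated arrays, -1.12 to 2.32 after 2 weeks of CPZ, -0.25 to 2.58 after 4 weeks and 0.54 to 4.99 on regular diet. At an unadjusted p under 0.05, 8 of 8 were lower after 2 weeks, against 5.03% of all genes, and 7 of 8 after 4 weeks, against 4.83%. The 8 astrocyte markers had a mean of 2.71 to 3.52, 2.90 to 3.64, 3.06 to 3.87 and 3.34 to 3.64 in the same order. At an unadjusted p under 0.05, 3, 3 and 4 of them were higher than in untreated after 2 weeks, after 4 weeks and on regular diet, against 4.5, 5.2 and 6.28% of all genes, and 1 was lower after 2 weeks, against 5.03%. After 2 weeks, 4 of the 8 had a difference above 0 and 4 below, with a median of 0.02, and the log2 difference was 1.18 for Gfap, 1.05 for Slc1a3, 0.63 for Aldh1l1, 0.40 for Sox9, -0.35 for Gja1, -0.46 for Aqp4, -0.53 for Slc1a2 and -1.01 for S100b. The 8 microglia markers had a mean of 0.81 to 1.76, 0.73 to 1.87, 1.65 to 2.54 and 1.68 to 4.80, and 1, 4 and 5 of them were higher than in untreated at that level, against the same shares of all genes. Regular diet arrays 1 and 2 had the 2 highest microglia means, 4.51 and 4.80, and, within the regular diet group, also the highest Cp, Atp7a and Atox1. Of the other genes, Mt3 was lowest on these 2 arrays (3.04 and 3.32), and Mt1 (6.70) and Ccs (2.67) were lowest on array 1. None of Mt1, Mt2, Slc31a1, Ccs and Sod1 had its 2 highest regular diet levels there.

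The mean of the 9 tested choroid plexus markers was -2.56 to -0.22 on untreated arrays, -2.34 to -0.13 after 2 weeks, -3.14 to 1.66 after 4 weeks and -3.28 to 1.41 on regular diet. For the 6 endothelial markers it was -0.35 to 0.41, -0.10 to 0.06, -0.59 to 0.31 and -0.72 to 0.04. For the 6 neuronal markers it was 3.05 to 3.76, 2.24 to 3.96, 3.07 to 4.00 and 2.37 to 3.53. On regular diet against 4 weeks of CPZ, where Mt3 and Sod1 lay lower on every array, 6 of 6 neuronal markers had a difference below 0 (median -0.72), 3 of them at an unadjusted p under 0.05, against 11.1% of all genes. These 3 were Gad1 at -0.84, Syt1 at -0.99 and Snap25 at -0.88, with 0 called. In the same comparison, 9 of 9 choroid plexus markers (median -0.58), 3 of 3 red blood cell markers (median -0.28), 5 of 6 endothelial markers (median -0.27) and 6 of 8 astrocyte markers (median -0.10) had a difference below 0. All 8 oligodendrocyte markers (median 1.09) and all 8 microglia markers (median 0.55) had a difference above 0. Of all these, 1 endothelial marker had an unadjusted p under 0.05. For the 3 tested red blood cell markers the mean was -0.30 to 0.16, -1.18 to 0.35, -0.58 to 0.78 and -0.86 to 0.45. The part of these shifts in the levels of the copper genes was not tested.

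**Figure D4:**
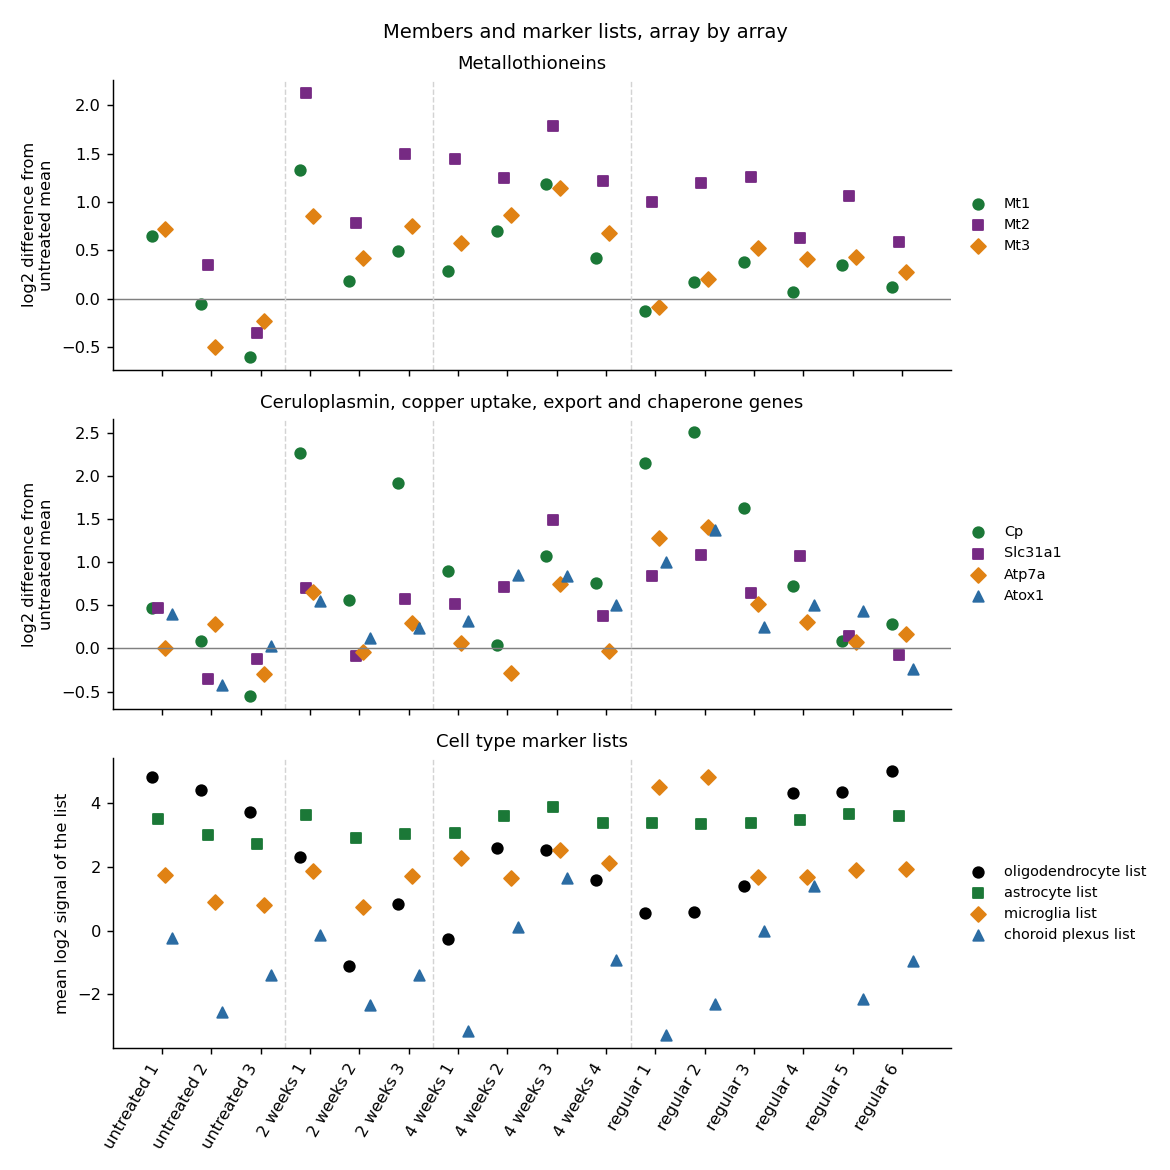
Upper panels: log2 difference of each array (x axis) from the untreated mean for the metallothioneins and for Cp, Slc31a1, Atp7a and Atox1; lower panel: mean log2 level of 4 marker lists on the same arrays, with dashed lines between groups. Mt2 on untreated array 1 is not drawn, and its untreated mean is over 2 arrays. On regular diet arrays 1 and 2, where the microglia mean is 4.51 and 4.80, Cp, Atp7a and Atox1 are the highest of the regular diet group and Mt3 is the lowest. Mt1, Mt2 and Slc31a1 have neither pattern.

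The wider copper and zinc pathways were described by 4 lists, in which limma called 0 genes in any comparison. Of 17 further genes of copper uptake, export, delivery and reduction, 14 were tested, and 0, 1, 0 and 1 were higher and 1, 0, 1 and 4 lower at an unadjusted p under 0.05 in the 4 comparisons, in the order used above. Of all genes, 4.5, 5.2, 6.28 and 15.5% were higher and 5.03, 4.83, 4.29 and 11.1% lower at that level. Their median log2 difference was 0.18 after 2 weeks, 0.11 after 4 weeks, -0.12 on regular diet against untreated and -0.26 on regular diet against 4 weeks of CPZ. Of 13 copper enzymes, 9 were tested, with 1, 1, 0 and 0 higher and 0, 0, 0 and 1 lower at that level and medians of 0.12, 0.05, 0.02 and -0.20. All 12 genes of zinc transport and metallothionein control were tested, with 0, 2, 1 and 0 higher and 0, 0, 0 and 2 lower at that level and medians of 0.14, 0.03, -0.24 and -0.07. Of 10 glucocorticoid-responsive genes, listed because glucocorticoids also induce Mt1 and Mt2, 9 were tested, with 0 higher and 0, 0, 4 and 1 lower at that level and medians of -0.21, -0.48, -0.68 and -0.22. The medians of all genes are those given above, within 0.05 of 0.

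Within these lists, the 2 genes with the smallest p in each comparison are named. A small p favours groups whose arrays do not overlap, so the separation of arrays given for these genes is no independent result. Moxd1, a relative of the copper enzyme dopamine beta-hydroxylase, had a mean log2 level of -0.62 on untreated arrays, 1.76 after 2 weeks and 1.05 after 4 weeks of CPZ. All arrays of both CPZ groups were above the untreated arrays, as for 8.16% of all genes after 2 weeks and 5.31% after 4 weeks. The log2 difference was 2.38 (SE 0.60, adjusted p = 0.150) and 1.67 (SE 0.56, adjusted p = 0.304). App, the amyloid precursor protein, which binds copper, was lower on each 2-week array than on any untreated one, with a difference of -0.83 (SE 0.26, adjusted p = 0.261). The share of all genes lower in this way was not counted. Steap2, a metalloreductase, was above the untreated arrays on each 4-week array, with a difference of 1.00 (SE 0.26, adjusted p = 0.154).

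On regular diet against untreated, the smallest p went to the glucocorticoid-responsive genes Pdk4, a kinase that restrains pyruvate use, at -1.05 (SE 0.40, adjusted p = 0.368), and Tsc22d3, which encodes GILZ, at -0.68 (SE 0.27, adjusted p = 0.383). On regular diet against 4 weeks of CPZ, Slc31a2, the intracellular relative of the copper transporter, differed by 0.91 (SE 0.19, adjusted p = 0.0733), with all 6 arrays above the 4. The share of all genes higher in this way was not counted. Sco1, which delivers copper to cytochrome c oxidase, differed by -0.35 (SE 0.13, adjusted p = 0.131), with all 6 arrays below the 4, as for 3.48% of all genes. The uptake transporter gene Slc31a1 was at -0.15 in the same comparison, with a sign that turned without 4-week array 3 (0.085) and by its other probe (0.25).

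The genes with the most similar pattern to a metallothionein or to Cp were found by the root mean square difference of log2 levels centred on their means over the 16 arrays (15 where a spot was left out). For Mt1 these were Tmem107 (0.18), Gpr37l1 (0.20) and Ezr (0.21), and Mt3 and Mt2 lay at 0.24 and 0.26. For Mt2 they were Ntrk2 (0.21), Bmp7 (0.24) and Serpinh1 (0.25), and for Mt3 Pla2g7 (0.19), Gpr37l1 (0.20) and Hint2 (0.21). For Cp they were Nes (0.27), Myof (0.32) and Myc (0.33). A gene with the same level on every array would have lain at 0.46 from Mt1, 0.585 from Mt2, 0.42 from Mt3 and 0.88 from Cp, the spread of each gene itself. The points share their arrays and scaling, and the values are a description.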

How the data were processed

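Total RNA (100 ng per array) of the corpus callosum was measured on 16 arrays. The authors deposited spot intensities as read by Agilent Feature Extraction (11.0.1.1 in the submitters' processing notes), background-subtracted but not scaled between arrays, with flags for spots well above background, saturated or outlying. The paper's methods name another version of this software. The flags that the authors deposited are 0 or 1 and were used as other values. A second deposited file holds GeneSpring's log2 values after 75th percentile scaling. Its baseline is the untreated median, which was found from the values, since the untreated columns had a median of 0 for 100% of probes. The column medians of this table ran from -0.17 to 0.05.

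Scanner files and table columns disagreed on the sample for 14 of 16 arrays, 13 of them across groups. Each array was given the sample of the table column it matched over 41153 probes (r at least 0.9991, next best at most 0.767). This departs from the recorded assignment, which was run as an alternative. Probes were named by accession through a RefSeq table on GRCm38.p6, used for names only (27479 of 41174 probes, 66.7%). The arrays' own annotation is on mm9.

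Control spots and outlier spots (48 to 126 an array) were left out, spots of a probe were averaged, and log2 of the signal minus log2 of the 75th percentile (159 to 358) was used, with no pseudocount. No probe was saturated on every array of a group. A probe entered the test if all arrays of 1 or more groups were well above background, which left 27503 on the 10 untreated and CPZ arrays and 27783 on all 16 for regular diet. Limma 3.58.1 in R 4.3.3 gave Benjamini-Hochberg adjusted p-values over all tested probes, with 7 and 12 residual degrees of freedom. A call needed an adjusted p under 0.05 and a 2-fold change. Of several tested probes of a gene, the brightest stands for it. The scripts were tested on simulated data. Statmod 1.5.0 was used for the slide as a random block and Python 3.11.15 for the rest. Normexp used the median spot signal, since a column of mean signals was not used here.

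The 9 genes and all lists were chosen with earlier results of these data known. Each of the 9 is named with all its probes. From the pathway lists, every called gene was to be named and otherwise the 2 with the smallest p in each comparison, and for Mt1, Mt2, Mt3 and Cp the 3 genes of nearest pattern. The alternatives were the recorded assignment, the authors' table, other scalings, background correction and filters, the slide and the replicate number as blocks, each array left out, other sets of arrays, the methods' kind of analysis of variance, here over the 4 labelled groups, the mean of the probes of a gene and array weights. Keeping outlier spots and leaving out 3 similar arrays were added after seeing the data.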

Additional observations from a re-analysis of the deposited data

How the results depend on the processing

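The call of 0 of the 9 genes held in the 3 comparisons with untreated and in that of regular diet with 4 weeks of CPZ under all alternatives run except array weights, including each array left out in turn, the processed table, the slide as a fixed or random block, the replicate block, the analysis of variance and the fit without untreated array 1 and 4-week arrays 2 and 3, the last chosen after seeing the data. With array weights, 2 genes were called after 2 weeks of CPZ and 2 after 4 weeks (Mt2 and Cp each time) and 1 on regular diet against untreated (Mt2). The estimation of the weights did not reach its tolerance, and 1754, 1901 and 1073 probes of the whole array were then called in these comparisons in place of 53, 45 and 222. On regular diet against 4 weeks of CPZ, where 1 probe was called, there were 1573 with array weights, 1274 with median scaling, 323 with quantile normalization, 1550 without 4-week array 1, 1305 without untreated array 1 and 348 without 4-week array 3. With each array left out, 8 to 75 probes were called after 2 weeks, 0 to 186 after 4 weeks and 5 to 240 on regular diet against untreated. In the 4 comparisons, the slide as a fixed block called 109, 477, 265 and 0 probes, and as a random block 311, 417, 327 and 8. The analysis of variance called 19, 11, 13 and 5. The comparison of 4 with 2 weeks of CPZ was not run under the alternatives. With the filter on every array, Mt2 was not tested. The number of arrays, 3 untreated among them, limits all of these comparisons.

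The direction of Mt2, Mt3 and Cp was the same in every alternative but the recorded assignment. With each array left out, the Mt2 difference ran from 1.12 to 1.82 after 2 weeks and from 1.07 to 1.78 after 4 weeks, and from 0.60 to 1.31 on regular diet against untreated. Both ends of each of these Mt2 ranges compare with 1 untreated array. The Cp difference after 2 and 4 weeks ran from 1.24 to 2.09 and from 0.42 to 0.93. Replicate numbers did not pair the arrays, as same-numbered arrays of different groups had correlations of their deviations from -0.84 to 0.33. With the replicate block, the Mt2 difference was 1.32 after 2 weeks and 1.34 after 4 weeks, and 0, 0, 24 and 0 probes were called on the whole array in the 4 comparisons in place of 53, 45, 222 and 1. The block turned Ccs after 4 weeks to 0.050 and, on regular diet against 4 weeks, Slc31a1 to 0.14 and Atox1 to 0.15.

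Under the recorded assignment, 27 differences turned. After 2 weeks they were Mt1 -0.37, Mt2 -0.82, Mt3 -0.17, Cp -0.86, Atox1 -0.024, Ccs -0.20 and Sod1 -0.082. After 4 weeks they were Mt1 -0.86, Mt2 -1.25, Mt3 -0.80, Cp -1.02, Slc31a1 -0.39, Atox1 -0.038 and Sod1 -0.28. On regular diet against untreated they were Mt1 -0.52, Mt2 -0.66, Mt3 -0.28, Cp -0.55, Slc31a1 -0.081 and Atp7a -0.067, and against 4 weeks Mt1 0.34, Mt2 0.59, Mt3 0.52, Slc31a1 0.31, Atp7a -0.12, Atox1 0.16 and Sod1 0.23.

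The other turns were of differences near 0. Quantile normalization gave Ccs 0.090 and Sod1 0.029 on regular diet against untreated, and Atox1 0.10 and Ccs 0.11 against 4 weeks. Median scaling, which moved the 4 comparisons by -0.16, 0.12, -0.18 and -0.30, except for Mt2, whose 3 differences from untreated moved by 0.023, 0.31 and 0.006, gave Ccs -0.13 and Sod1 -0.11 after 2 weeks, Ccs 0.10 after 4 weeks and Mt1 -0.020 on regular diet against untreated. Normexp gave Ccs 0.032 after 4 weeks, Ccs 0.085 and Sod1 0.13 on regular diet against untreated and Ccs 0.053 against 4 weeks. The slide as a fixed block gave Ccs -0.087 and Sod1 -0.16 after 2 weeks, Ccs 0.23 after 4 weeks and Ccs 0.024 on regular diet against untreated, and as a random block Sod1 -0.016 after 2 weeks and Ccs 0.082 after 4 weeks. Array weights gave Ccs 0.15 and Sod1 0.13 on regular diet against untreated and Ccs 0.018 against 4 weeks. The mean of the probes gave Ccs -0.013 after 2 weeks and, on regular diet against 4 weeks, Slc31a1 0.048 and Ccs 0.067. Without the 3 similar arrays, Ccs and Sod1 were 0.13 on regular diet against untreated, and Slc31a1 0.17, Atox1 0.14 and Ccs 0.16 against 4 weeks.

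With each array left out, 17 of 468 differences turned. Ccs ran from -0.11 to 0.24 and Sod1 from -0.11 to 0.27 after 2 weeks, and Ccs from -0.15 to 0.16 and Atp7a from -0.083 to 0.27 after 4 weeks. On regular diet against untreated, Mt1 ran from -0.14 to 0.49, Ccs from -0.18 to 0.13 and Sod1 from -0.25 to 0.13. Against 4 weeks, Slc31a1 ran from -0.29 to 0.085, Atox1 from -0.24 to 0.084 and Ccs from -0.10 to 0.087. Only for median scaling and for fits with fewer arrays does the construction of the alternative show the cause, and elsewhere the cause was not tested.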
